A study of Mus musculus with 1 sample.

Results

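The genes described here are those with which a cell recognises microbial or damaged nucleic acid and cell wall material and answers with the interferon programme. They comprise 51 named mouse genes, namely the Toll-like receptors with Cd14, the cytosolic sensors, their adaptors and the kinase Tbk1, the interferon regulatory and STAT transcription factors, interferon-stimulated effectors, and the signal brakes Socs1 and Socs3. A gene counted as measured when at least 1 probe set of the array named it and no other gene, and 49 of the 51 were measured, by 84 probe sets, out of 18193 measured genes in all. The levels of Nod2 and Isg15 were not analysed here, except for a probe set shared by Isg15 and a related locus that is given below.

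The sample was a cultured mouse lung cancer cell line of strain B6/J, grown from a tumor of the kind the labels call KR and titled KR Primary. The labels do not spell out KR, and the series title names kras tumors. Cells were kept in serum-containing medium, collected at 80 to 90% confluence without any stated treatment, and 150 ng of total RNA was labelled for a 3′ expression array. There was 1 sample in 1 group, so no value below has a replicate error, no test between conditions exists, and the line stands for a single tumor culture.

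Toll-like receptors sit on the cell surface or in endosomes and bind bacterial lipids, proteins or nucleic acids, and they signal through the adaptors MyD88 and TRIF. RIG-I and MDA5 in the cytosol bind viral RNA and signal through MAVS, whereas cGAS binds DNA and signals through STING. These routes meet at the kinase TBK1 and the factors IRF3 and IRF7, which switch on interferon genes, and secreted interferon then acts through its receptors, JAK kinases and factors such as STAT2 and IRF9 on the promoters of interferon-stimulated genes. Lung epithelial cells are known to carry part of this equipment, since they line a surface that meets inhaled microbes.

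Signals are the deposited intensities, 1 per probe set, in arbitrary units on a linear scale. Each was judged against a background made of 124 probe sets for smell and pheromone receptors (44 olfactory, 34 vomeronasal), bitter taste receptors (3) and hair keratin-associated proteins (43), genes of tissues not sampled here, which had a median of 6.52. The 95th percentile of that set, 16.8, is called the background line below, and its highest value, 60.6, the upper limit. A gene's level is its highest probe set. Brightness per amount of RNA is not the same for different probe sets, so levels are read against the thresholds, and naming the signals of several genes side by side ranks no RNA amounts.

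Of the 49 measured members, 32 (65.3%) were above the line, against 63.3% of all measured genes. At the upper limit 22 members (44.9%) passed, against 47.5% of all measured genes. Both shares lay near those of the array as a whole. Genes with more probe sets pass more often, and all genes weighted to the members' numbers of probe sets would give shares of 61.3% and 45.5%. Counted by probe set, 53 of 84 (63.1%) exceeded the line and 35 (41.7%) the upper limit, beside 60.9% and 41.1% of all one-gene probe sets. The median member level was 33.8, and the median over all measured genes was 48.3. No member exceeded a signal of 823.

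**Figure D1:**
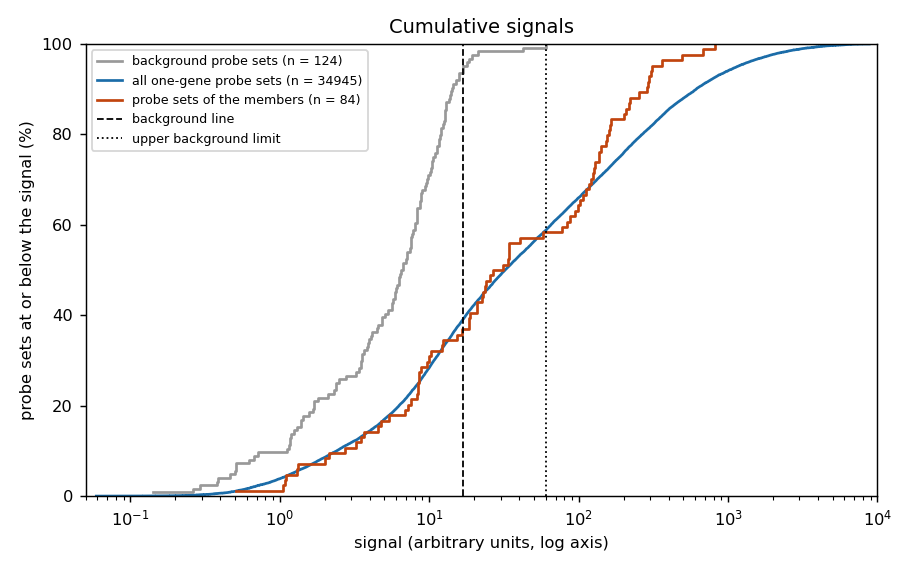
Cumulative share of probe sets (vertical axis, %) at or below a signal (horizontal axis, arbitrary units, log axis) for the 124 background probe sets, all 34945 one-gene probe sets and the 84 probe sets of the members. The member curve runs beside that of all one-gene probe sets up to the upper limit of 60.6 (dotted) and ends at 823, and both lie to the right of the background set, whose 95th percentile is the line at 16.8 (dashed).

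The only error the array provides is the spread between probe sets of the same gene, which mixes probe brightness, transcript variants and noise. It could be formed for 21 members and had a median SD of 1.07 on the log2 scale, beside 1.45 over the 9010 genes with 2 or more probe sets. In 10 of the 21 every probe set was above the line, in 5 none was, and in 6 they disagreed. The other 28 members rest on 1 probe set each. Of the 22 members above the upper limit, 6 passed it on all of 2 or more probe sets (Tlr3, Mavs, Tbk1, Ifi35, Eif2ak2 and Socs3), 6 on some of their probe sets, and 10 on their only probe set. Without probe sets whose names end in _x, _s or _a, Tlr3, Mavs, Tbk1, Ifi35 and Socs3 kept 1 probe set each. Their levels were then 87.5, 306, 288, 102 and 77.8, all above the upper limit. Eif2ak2 kept all of its probe sets.

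Of the Toll-like receptors with Cd14, 4 of 10 exceeded the line and 3 the upper limit. Weighted to the numbers of probe sets of this list, all genes would give 58.2% and 42.7%. Among the 9 receptors, Tlr3 and Tlr4 were above the upper limit, Tlr2 lay between the thresholds and the other 6 were not above the line. Tlr3, the endosomal receptor of double-stranded RNA, gave 122 and 87.5 on its probe sets. Tlr4, the surface receptor of bacterial lipopolysaccharide, gave 136, 128, 30.9 and 2.75. Its lowest probe set therefore lay below the line while 2 of the 4 were above the upper limit, and the SD between them was 2.64 on the log2 scale.

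Genes that serve Tlr4 gave signal as well. Cd14, which hands lipopolysaccharide to the receptor, gave 255 on its only probe set. Ly96, which encodes the receptor's lipid-binding partner MD-2, gave 149. Lbp, the serum protein that carries lipopolysaccharide, reached 32.9, between the thresholds, and its other probe set read 15.2, not above the line. Cd14 is also used as a marker of monocytes. Of the myeloid genes in the leukocyte list given below, S100a8 and Cd68 read 75.8 and 69.8, above the upper limit, and Csf1r read 47.1. Cd209a, Adgre1, S100a9, Lyz2, Tyrobp, Fcer1g and Itgam, from the same list, read between 4.87 and 15.7, none above the line. The part of myeloid cells in the Cd14 signal was not tested.

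The receptors of nucleic acids other than Tlr3 were not above the line. Tlr7, a receptor of single-stranded RNA, gave 2.13, 1.33 and 0.512. Its neighbour on the X chromosome, Tlr8, gave 5.39. Tlr9, the receptor of unmethylated CpG DNA, gave 15.3, which is close below the line. Unc93b1, the chaperone that brings these receptors to endosomes, was named after its value was seen and read 42.2, between the thresholds.

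Receptors of bacterial lipoproteins and flagellin were at or near background. Tlr2, which pairs with Tlr1 or Tlr6 on lipoproteins, gave 20.8. Tlr1 gave 1.30 and Tlr6 gave 9.59. Tlr5, the receptor of flagellin, gave 16.5, just below the line. The highest olfactory and vomeronasal receptor probe sets read 17.8 and 19.2, and the third highest background probe set, for Krtap19-4, read 21.0. The signals of Tlr2, Tlr5 and Tlr9 lay within this range of background genes.

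**Figure D2:**
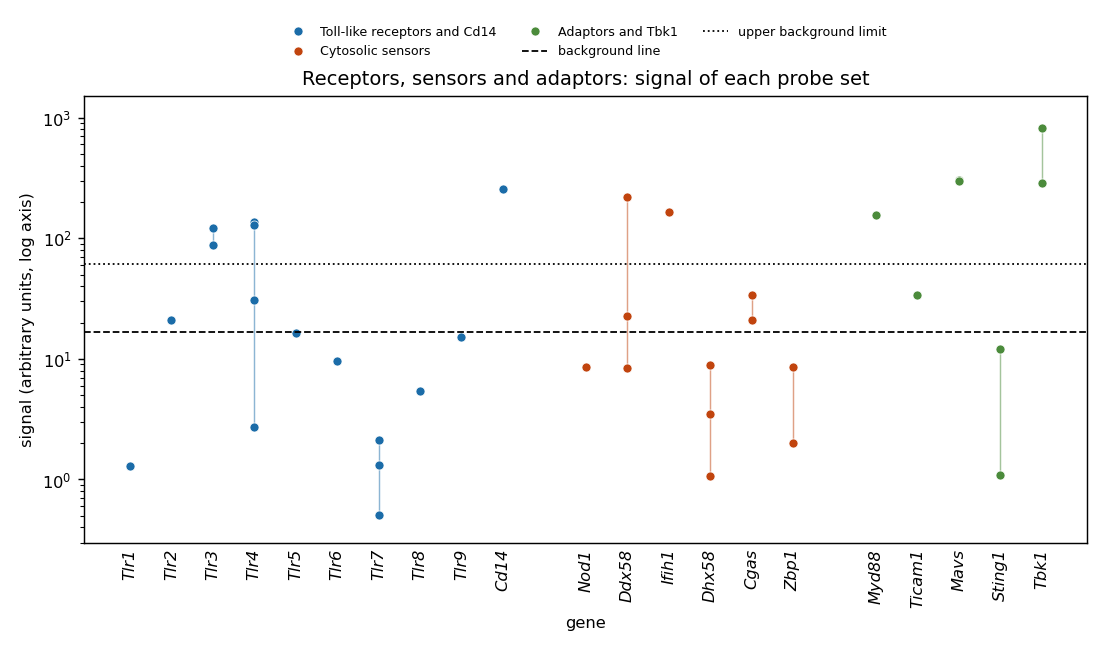
Signal of every one-gene probe set (points; vertical axis in arbitrary units, log axis) of the Toll-like receptors with Cd14, the cytosolic sensors, and the adaptors with Tbk1, with a line joining probe sets of the same gene. Tlr3, Tlr4, Cd14, Ddx58, Ifih1, Myd88, Mavs and Tbk1 reach above the upper limit of 60.6 (dotted), whereas all probe sets of Tlr7, Dhx58, Zbp1 and Sting1 lie below the line of 16.8 (dashed).

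In the cytosol, the RNA sensor genes Ddx58 and Ifih1 were above the upper limit, whereas the DNA sensor gene lay between the thresholds and its adaptor gene was not above the line. Ddx58, which encodes RIG-I, gave 218 on the highest of its probe sets, and 22.5 and 8.39 on the others. Ifih1, which encodes MDA5, gave 164 on its only probe set. Dhx58, which encodes LGP2, their regulator, was not above the line on any of its probe sets (8.84, 3.49 and 1.07). The upper limit was thus exceeded by 1 of the 3 Ddx58 probe sets and the line by 2.

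Mb21d1, written Cgas in the annotation, encodes the DNA sensor cGAS and gave 33.8 and 20.8, both between the thresholds. Tmem173, written Sting1, encodes its adaptor STING and gave 12.1 and 1.10, neither above the line. Zbp1, a sensor of left-handed nucleic acid, gave 8.57 and 2.0 and was not above the line. Nod1, a sensor of bacterial peptidoglycan, gave 8.54. In all, 3 of the 6 measured cytosolic sensors exceeded the line and 2 the upper limit. The weighted shares of all genes for these sensors were 67.7% and 51.6%.

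Of the 5 adaptors with Tbk1, 4 exceeded the line and 3 the upper limit. For this list the weighted shares of all genes were 62.8% and 45.9%. Mavs, the mitochondrial adaptor of RIG-I and MDA5, gave 306 and 297, an SD of 0.03 on the log2 scale. Tbk1, the kinase that phosphorylates IRF3, gave 823 and 288. All 4 of these signals exceeded the upper limit. Myd88, the adaptor of most Toll-like receptors, gave 155. Ticam1, which encodes TRIF and serves Tlr3 and Tlr4, gave 33.9, between the thresholds. Sting1 was the only adaptor of the 5 that was not above the line.

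Further genes of Toll-like receptor signalling and of NF-kappaB were read from lists. Of 15 measured partners of the receptors, 14 (93.3%) exceeded the line and 11 (73.3%) the upper limit, beside 63.3% and 47.5% of all measured genes. All genes of the array, weighted to the numbers of probe sets of this list, would give 69.3% and 53.2%. Tab2, Irak1 and Tirap, which act downstream of the receptors, gave 851, 642 and 613, all above the upper limit, while Irak3, an inhibitory kinase of macrophages, was not above the line at 9.12. All 13 measured genes of the NF-kappaB core and its feedback exceeded the line and 10 (76.9%) the upper limit, where the weighted shares of all genes were 70.9% and 55.6%. The feedback genes Nfkbiz, Nfkbia and Tnfaip3 gave 1460.1, 1268 and 1059, and the subunit genes Relb and Rel gave 24.5 and 23.3.

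All 9 transcription factors were over the line and 6 of them (66.7%) over the upper limit. Weighted to their numbers of probe sets, all genes would give 65.4% and 49.8%. Irf3, the factor that Tbk1 activates, gave 4 signals that all exceeded the line, with 678, 208, 57.6 and 34.0. The highest of them has a name ending in _x_at, which marks probes that can match more than 1 gene, and the only Irf3 probe set named without any such letter gave 57.6, between the thresholds. Irf1 and Irf2, an activator and a repressor that bind the same sites, gave 220.0 and 159 on 1 probe set each. Irf9, a DNA-binding factor of the interferon response, gave 99.3.

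The remaining interferon regulatory factors lay nearer to the thresholds. Irf5, a factor of inflammatory cytokine genes, gave 82.9 and 24.1, so that 1 of 2 probe sets passed the upper limit. Irf7, which amplifies the interferon response and is itself interferon-induced, gave 18.4. Irf8, a factor of myeloid cells, gave 18.4 and 9.89. Irf7 and Irf8 were thus 1.09 times the line, and the highest of the 34 vomeronasal receptor probe sets, at 19.2, exceeded both. With the line at the 99th percentile of the background set, 37.3, the factors above it numbered 6 of 9.

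Of the STAT factors, Stat3, which acts below interleukin-6 and related cytokines, gave 291, 152, 18.8 and 10.2. Stat2, which acts below type I interferon, gave 22.8 and 1.05, with an SD of 3.14 on the log2 scale. Stat3 therefore exceeded the upper limit with 2 of its 4 probe sets and Stat2 with neither of its 2.

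**Figure D3:**
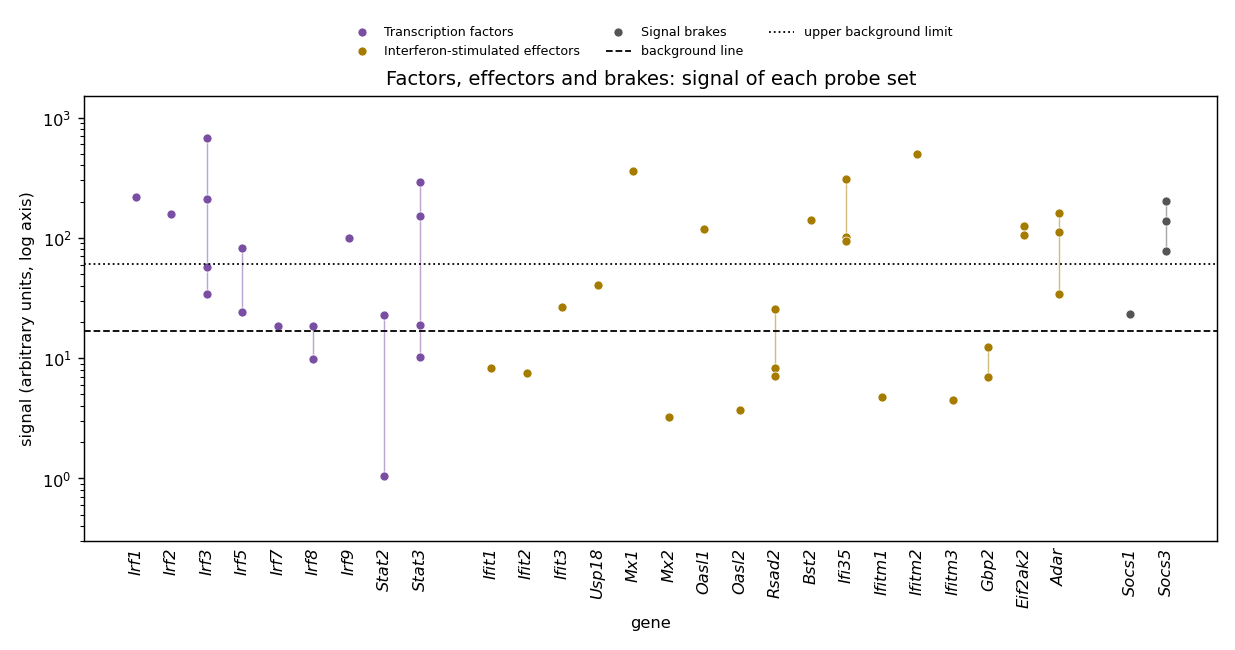
Signal of every one-gene probe set (points; vertical axis in arbitrary units, log axis) of the transcription factors, the interferon-stimulated effectors and the signal brakes, with a line joining probe sets of the same gene. All 9 factors have a point above the line of 16.8 (dashed), while the effectors divide into 7 above the upper limit of 60.6 (dotted), 3 between and 7 below the line.

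Of the interferon-stimulated effectors, 10 of 17 (58.8%) were over the line and 7 (41.2%) over the upper limit, shares near the 63.3% and 47.5% of all measured genes. Those above the upper limit were Mx1, Oasl1, Bst2, Ifi35, Ifitm2, Eif2ak2 and Adar. Bst2, which encodes tetherin and holds budding virus at the cell surface, gave 141. Ifi35, an interferon-induced leucine zipper gene, gave 309, 102 and 94.8. Eif2ak2, which encodes the kinase PKR that stops translation on sensing double-stranded RNA, gave 126, 125 and 106. Adar, the enzyme that edits double-stranded RNA, gave 161, 112 and 34.3.

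The Ifit genes, whose proteins bind viral RNA and are strongly induced by interferon, were low. Ifit1 gave 8.35 and Ifit2 gave 7.56, neither above the line, and Ifit3 gave 26.6. Rsad2, which encodes the antiviral enzyme viperin, gave 25.4, 8.22 and 7.15. Usp18, which removes the ISG15 modifier and dampens the interferon receptor, gave 40.2. Gbp2, a guanylate-binding protein gene, gave 12.3 and 6.92. The probe set shared by Isg15 and the related locus Gm9706 gave 21.6, between the thresholds, and cannot be assigned to either.

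Some related effectors that lie near each other in the genome read on opposite sides of the thresholds. On chromosome 7, Ifitm2, Ifitm1 and Ifitm3, which encode membrane proteins that block virus entry, lie in that order with no other protein-coding gene between them. Ifitm2 gave 494, whereas Ifitm1 gave 4.79 and Ifitm3 gave 4.53, each on 1 probe set. On chromosome 5, Oasl1 gave 117 and its direct neighbour Oasl2 gave 3.68, both being relatives of the oligoadenylate synthetases. On chromosome 16, Mx1 gave 360 and Mx2 gave 3.22, with 1 protein-coding gene between them.

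Mx1 and Mx2 encode antiviral GTPases, and strains such as C57BL/6J are known to carry disrupted copies of both. The RefSeq table of the C57BL/6J assembly lists each as a transcribed pseudogene, so the Mx1 signal in this B6/J line is a transcript level and says nothing of a protein. In the Ifit cluster on chromosome 19, Ifit3 lies directly beside Ifit2, and 3 other protein-coding genes separate it from Ifit1. Ifit3 alone of them was above the line. The receptor neighbours Tlr1 and Tlr6 on chromosome 5, and Tlr8 and Tlr7 on the X chromosome, were all below the line.

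**Figure D4:**
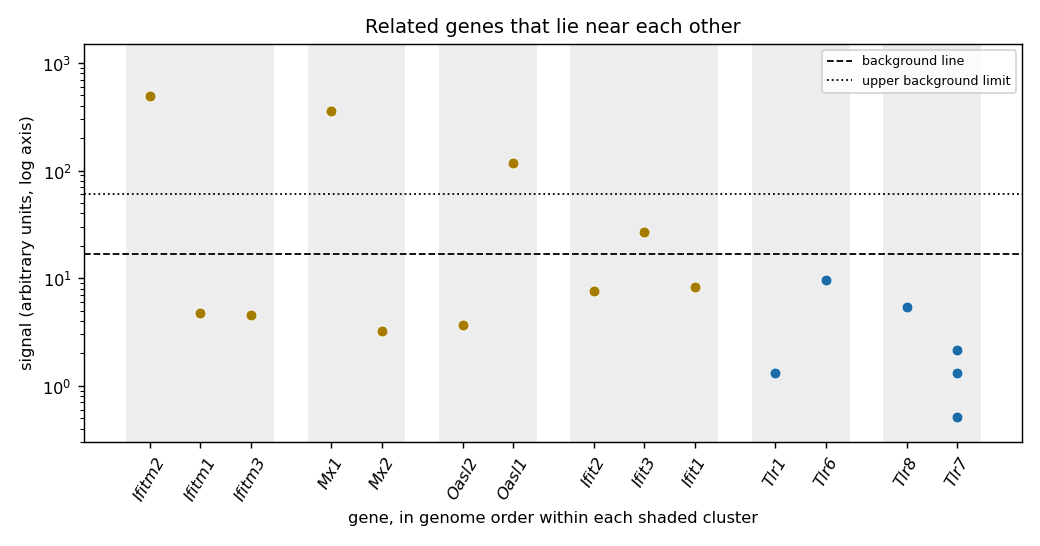
Signal of each probe set (points; vertical axis in arbitrary units, log axis) of related members that lie near each other, in genome order within each shaded cluster. Ifitm2, Mx1 and Oasl1 lie above the upper limit of 60.6 (dotted) while Ifitm1, Ifitm3, Mx2 and Oasl2 in the same clusters lie below the line of 16.8 (dashed).

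The promoters of Ifitm2 and Ifitm3 are printed because these neighbours read far apart. Each is 300 bases long, most of them before a RefSeq transcript start in build GRCm38.p6, and is written 5′ to 3′ on the gene's strand. Capitals mark matches to GAAA, any 2 bases and GAAA again, on either strand, the core of the interferon-stimulated response element to which the IRF factors bind. The Ifitm2 sequence is chr7:140955912-140956211, reverse strand, and that of Ifitm3 is chr7:141010695-141010994, reverse strand.
Ifitm2: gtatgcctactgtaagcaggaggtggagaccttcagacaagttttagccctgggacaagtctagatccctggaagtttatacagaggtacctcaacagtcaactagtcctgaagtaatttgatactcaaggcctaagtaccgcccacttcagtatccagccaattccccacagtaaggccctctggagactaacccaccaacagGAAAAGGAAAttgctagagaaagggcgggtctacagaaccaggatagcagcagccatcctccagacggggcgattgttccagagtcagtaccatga
Ifitm3: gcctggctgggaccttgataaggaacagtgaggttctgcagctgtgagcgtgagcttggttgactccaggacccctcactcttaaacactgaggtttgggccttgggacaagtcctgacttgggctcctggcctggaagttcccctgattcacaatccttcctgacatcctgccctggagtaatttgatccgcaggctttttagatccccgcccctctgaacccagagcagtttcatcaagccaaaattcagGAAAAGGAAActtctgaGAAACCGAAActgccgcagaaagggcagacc

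The Ifitm2 promoter held 1 match and the Ifitm3 promoter 2, and the first match of each reads the same 10 letters. The gene with signal at background thus had the response element letters as well. Over all members with a promoter in the RefSeq promoter file, 16 of 42 (38.1%) held at least 1 match, Nod2 and Isg15 included, and among all 27025 genes of that file 3.99% did. Of the 40 measured members with a promoter, a match was found in 7 of 19 above the upper limit, in 4 of 9 between the thresholds and in 4 of 12 not above the line. For the gamma-activated site, TTCNNNGAA, which factors of the STAT family bind, the counts were 8 of 19, 1 of 9 and 6 of 12, with 9.55% of all genes holding a match. Matches to both motifs can overlap, a match is no proof of a bound site, and transcript starts used in these cells were not measured.

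Short stretches of 30 bases around the response element letters show members from each side of the thresholds, again in GRCm38.p6 and on the gene's strand. The stretch of Bst2 is chr8:71537580-71537609, reverse strand; that of Eif2ak2 is chr17:78882535-78882564, reverse strand. Those of the RNA sensors are chr4:40239804-40239833, reverse strand, for Ddx58 and chr2:62646206-62646235, reverse strand, for Ifih1. Ifit1 is shown at chr19:34640784-34640813, forward strand, Gbp2 at chr3:142620594-142620623, forward strand, Rsad2 at chr12:26456553-26456582, reverse strand, and Socs1 at chr16:10785597-10785626, reverse strand. The first 4 were above the upper limit, Ifit1 and Gbp2 not above the line, and Rsad2 and Socs1 between.
Bst2: attccagGAAAATGAAACTGAAAggctgca
Eif2ak2: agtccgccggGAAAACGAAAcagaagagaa
Ddx58: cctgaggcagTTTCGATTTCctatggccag
Ifih1: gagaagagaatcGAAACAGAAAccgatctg
Ifit1: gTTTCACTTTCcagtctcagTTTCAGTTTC
Gbp2: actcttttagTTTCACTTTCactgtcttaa
Rsad2: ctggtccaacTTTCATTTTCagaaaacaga
Socs1: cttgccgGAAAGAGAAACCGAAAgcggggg

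In Bst2 and Socs1 the printed stretch holds 2 overlapping matches, and in Ifit1 it holds 2 separate ones. Promoters of Mx1, Mx2, Usp18, Cd14, Sting1, Dhx58, Zbp1, Tlr4 and Tlr7 were not analysed here.

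The signal brakes are themselves targets of STAT factors. Socs3, which limits interleukin-6 type signalling through JAK kinases, gave 201, 138 and 77.8, all above the upper limit. The first 2 have names ending in _x_at, and the last does not. Socs1, which limits interferon signalling, has 1 probe set, and it read 23.5, between the thresholds.

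Most interferon genes were at background, while the genes of their receptors gave signal. Of 10 measured interferon genes, 1 exceeded the line and none the upper limit, whereas 48.4% and 32.6% of genes with 1 probe set, as each of these has, did so. Ifnb1, which encodes interferon beta, gave 11.4. Ifnz, of the interferon zeta family, gave 41.5, between the thresholds, while the interferon alpha genes Ifna11, Ifna5 and Ifna9 gave 8.62, 1.37 and 1.14. All 9 measured genes of interferon receptors and JAK kinases were above the upper limit, with Il10rb at 706, Jak2 at 544, Jak1 at 353, Ifngr2 at 149 and Tyk2 at 132. For this list the weighted shares of all genes were 69.2% at the line and 52.7% at the upper limit. The type I receptor chains Ifnar1 and Ifnar2, named here after their values were seen, reached 181 and 267. These levels are highest probe sets. The lowest probe sets of Il10rb, Ifnar1, Tyk2 and Ifnar2 read 19.5, 23.4, 23.6 and 41.3, all between the thresholds.

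A wider list of interferon-stimulated genes lay on both sides of the line. Of 41 measured, 24 (58.5%) exceeded the line and 13 (31.7%) the upper limit, beside 58.8% and 41.2% of the 17 effectors. Shisa5, Trim25, a ubiquitin ligase that acts on RIG-I, and Lgals3bp gave 1580.5, 937 and 515. Sp100, a nuclear body protein gene, gave 3.41 and Oas1b, an oligoadenylate synthetase gene, 2.26. Both shares at the line were below the 63.3% of all measured genes. Weighted to probe set numbers, all genes would give 63.4% at the line and 47.3% at the upper limit for the wider list. For the 17 effectors the weighted shares were 57.7% and 42.1%, close to their own.

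Inflammasome genes were mostly at background. Of 11 measured, 4 (36.4%) exceeded the line and 1 (9.09%) the upper limit, Gsdmd, which encodes the pore-forming gasdermin D, at 588. The weighted shares of all genes for this list were 51.4% and 35.8%. Il18 gave 58.5 and the cytosolic DNA sensor gene Aim2 gave 42.6. Casp1, the inflammasome protease gene, gave 6.80 and Casp4 gave 0.860.

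**Figure D5:**
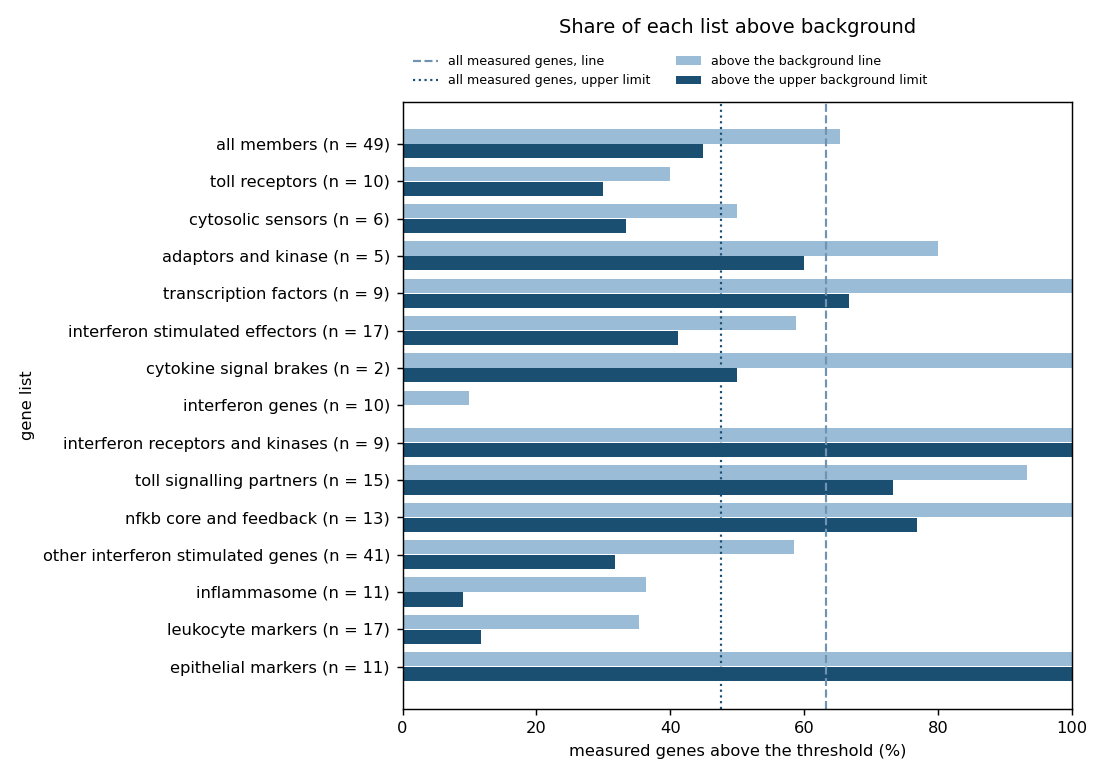
Share of the measured genes of each list (bars; horizontal axis, %) above the background line and above the upper limit, with the shares over all measured genes as vertical lines at 63.3% (dashed) and 47.5% (dotted). All 9 factors and all 9 interferon receptor and kinase genes pass the line, whereas 1 of 10 interferon genes does.

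The labelled cell type was checked against marker lists, because many members are highly expressed in leukocytes. All 11 epithelial markers were above the upper limit, among them Krt18, Krt8 and Krt7 at 7600.2, 7422 and 5723 and Elf3 and Grhl2 at 297 and 272. The weighted shares of all genes for the epithelial list were 57.31% at the line and 41.76% at the upper limit. Of 10 lung epithelial markers 5 exceeded the line and 3 the upper limit (Sftpd at 397, Abca3 at 370 and Hopx at 132). For the lung list the weighted shares of all genes were 61.35% and 44.96%, both above the list's own shares. The lung factor Nkx2-1 gave 7.66 and Scgb1a1 gave 1.38, neither above the line. All 8 measured housekeeping genes were above the upper limit, with Rpl13a, Eef1a1 and Pgk1 at 8049, 7056 and 6878 and Hprt and Tbp at 2540.2 and 198. Their weighted shares were 68.8% and 53.5%.

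Of 17 measured leukocyte markers, 6 exceeded the line and 2 the upper limit, S100a8 at 75.8 and Cd68 at 69.8, and Csf1r read 47.1. These counts are 35.3% and 11.8%, beside weighted shares of all genes of 58.0% and 42.4%. The others above the line were Cd53, Cd8a and Laptm5, whose highest probe sets read 39.4, 22.0 and 18.5, between the thresholds. Ptprc, the pan-leukocyte gene, gave at most 11.5, and Cd3e and Siglech gave 3.34 and 3.28. The levels of the whole list ran from 3.28 to 75.8, and the part of such cells in the Irf5 and Irf8 signals was not tested. Among 12 fibroblast markers 3 exceeded the line and none the upper limit, with Acta2, Col6a3 and Col1a2 at 25.1, 19.8 and 19.3 and Pdgfrb and Postn at 3.95 and 1.30. Among 9 endothelial markers 3 exceeded the line and none the upper limit, with Kdr, Eng and Cdh5 at 30.3, 17.7 and 17.4 and Vwf and Tie1 at 4.12 and 1.64. The weighted shares were 64.8% and 48.7% for the fibroblast list and 58.2% and 42.4% for the endothelial one.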

How the data were processed

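Total RNA of 1 cultured sample was hybridized to 1 Affymetrix array. The authors deposited linear signal intensities, 1 for each of 45101 probe sets. The submitters' processing notes name Affymetrix Expression Console; its version, the algorithm and any background correction were not given in the sources used here. Values ranged from 0.0591 to 8928 with a median of 22.5. Of the non-control probe sets 34945 named 1 gene in the platform annotation, 932 several and 9160 none here; 34741 of the 34945 matched a RefSeq gene ID, and no symbol changed. The background line, the upper limit and the gene level (highest probe set) are defined with the results; no fit or test was made, because 1 array gives no replicate spread, and the number of arrays limits the precision. The members, roles and lists were chosen with earlier results of these data known. All members are described. Of each companion list the 3 highest and 2 lowest measured genes are named, with Ifnb1, Ptprc, Nkx2-1 and Ly96. Unc93b1, Ifnar1, Ifnar2, Cd53, Cd8a, Laptm5 and the further myeloid genes named beside Cd14 were chosen after their values were seen. Promoters came from a RefSeq table of GRCm38.p6 with 32851 sequences of 300 bases. Alternatives changed the line, the background set, the probe sets admitted and the gene rule. The calling function was tested on simulated data whose expressed genes were set far above background, unlike members near the line. The motif search was tested on a made sequence, for the response element only. Python 3.11.15, numpy 2.4.6, pandas 2.3.3 and matplotlib 3.10.9 were used.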

Additional observations from a re-analysis of the deposited data

How the results depend on the processing

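Over the alternative settings the count of members above the line ranged from 22 (line at the mean plus 2 SD of the log2 background, 46.0) to 34 (line at the 90th percentile, 14.2, or a background set without keratin-associated protein genes, 15.2), against 32 of 49 as reported. The count above the upper limit ranged from 16, with the lowest probe set as the level, to 30, with the limit at 19.2 when keratin-associated protein genes were left out, against 22. The call at the line was the same under every alternative that gave a value for 34 of 49 members, 19 above and 15 not above. Tlr5 and Tlr9 passed the line at the 90th percentile and without keratin-associated protein genes. A line at the 99th percentile, 37.3, removed Tlr2, Cgas, Ticam1, Irf7, Irf8, Stat2, Ifit3, Rsad2 and Socs1, and the mean plus 2 SD removed these and Usp18. The median of the probe sets removed Irf8, Stat2 and Rsad2, and the lowest probe set also removed Tlr4, Ddx58 and Stat3. Without probe sets whose names end in _x, _s or _a, 41 members could be measured, and 25 exceeded the line and 17 the upper limit; the transcription factors then had 5 above the line of 5 measured. The signal brakes had 1 above the line instead of 2 at the 99th percentile, at the mean plus 2 SD, and without those probe sets, where only 1 could be measured. The symbols as the annotation writes them gave the same counts. No paired analysis was possible because there was 1 sample. Signals near the line carry little information on amount, and 28 members rest on 1 probe set.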
